A study of Mus musculus with 6 samples.

Results

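The chemokine and chemokine receptor genes were taken as 34 named mouse genes, and the changes in chromatin accessibility listed around them were followed in leukemic cells that kept or lacked C/EBPα and C/EBPβ, a pair of related transcription factors of the myeloid lineage. A region belonged to a gene when it overlapped the GENCODE M21 gene body extended by 25 kb on each side, and a region within several windows was given to the nearest start site. By this rule 22 of the 10016 listed regions lay at 14 of the 34 genes, whereas 20 genes had no listed region.

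The study used ATAC-seq, in which the Tn5 transposase cuts open DNA so that reads over a region measure its accessibility, on fetal liver cells of the mouse that the fusion oncogene MLL-ENL had transformed and that grew with IL-3. WT cells were labelled wild-type, per the study's methods kept their conditional Cebpa and Cebpb alleles, and had no vector named in their labels, whereas dKO cells carried Cebpa KO, Cebpb KO and exogenous GFP. Each group had 2 libraries, and another group, dKO cells with the rat C/EBPβ isoform LAP*, was not analysed here because both processed files held the same WT and dKO table. The dKO lines were recovered as rare clones after Cre treatment, so genotype, vector and clone cannot be told apart in any value below.

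Chemokines are small secreted proteins that direct the migration of leukocytes, and their CC and CXC families are named for the spacing of conserved cysteines. They act through receptors with several membrane passes that couple to G proteins, while atypical receptors bind ligands without this coupling and often remove them. In myeloid cells the family steers the release of progenitors and mature cells from the bone marrow and their recruitment to inflamed tissue, and many of the ligand genes lie side by side in clusters.

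The listed regions are short stretches of DNA, and 7 of them are shown to make the later account of motifs and repeats readable. Each line holds the central 200 bp of a region, read 5′ to 3′ on the + strand of the RefSeq GRCm38.p6 assembly, which has the chromosomes of mm10. Capitals mark matches on either strand to a C/EBP string (TTACNNAA or TTGCNNAA), an AP-1 string (TGACTCA or TGAGTCA), the PU.1 string GAGGAAGT or the RUNX string AACCACA. Ccl5 was the region with the largest rise among those with an AP-1 match, and the other 6 were chosen after their values were seen, for their matches or, at Ccl2, for lying at a start site.
Ccl5 intron (chr11:83528034-83528233): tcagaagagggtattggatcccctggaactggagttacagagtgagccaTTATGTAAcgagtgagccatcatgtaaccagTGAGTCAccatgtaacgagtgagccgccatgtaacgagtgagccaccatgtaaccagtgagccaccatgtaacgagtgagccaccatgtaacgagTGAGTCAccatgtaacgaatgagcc
Ccl6 upstream (chr11:83604759-83604958): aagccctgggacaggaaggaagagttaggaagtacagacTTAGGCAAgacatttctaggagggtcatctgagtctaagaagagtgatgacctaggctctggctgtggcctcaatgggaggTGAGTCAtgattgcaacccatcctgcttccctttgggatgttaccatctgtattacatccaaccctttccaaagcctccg
Ccr2 upstream (chr9:124099242-124099441): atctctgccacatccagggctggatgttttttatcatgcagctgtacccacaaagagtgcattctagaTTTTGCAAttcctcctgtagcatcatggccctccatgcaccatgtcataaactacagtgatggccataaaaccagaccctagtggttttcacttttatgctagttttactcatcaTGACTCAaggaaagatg
Cxcr4 downstream (chr1:128563984-128564183): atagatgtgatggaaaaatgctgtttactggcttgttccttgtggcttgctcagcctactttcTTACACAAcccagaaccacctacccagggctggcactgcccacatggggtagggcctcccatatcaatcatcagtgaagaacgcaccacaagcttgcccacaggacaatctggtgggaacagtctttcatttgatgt
Ccl4 intron (chr11:83663649-83663848): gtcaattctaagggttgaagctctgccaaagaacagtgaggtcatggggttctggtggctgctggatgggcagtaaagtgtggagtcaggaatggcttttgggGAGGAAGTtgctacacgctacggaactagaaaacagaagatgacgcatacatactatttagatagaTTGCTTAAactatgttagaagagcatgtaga
Ccl9 downstream (chr11:83569344-83569543): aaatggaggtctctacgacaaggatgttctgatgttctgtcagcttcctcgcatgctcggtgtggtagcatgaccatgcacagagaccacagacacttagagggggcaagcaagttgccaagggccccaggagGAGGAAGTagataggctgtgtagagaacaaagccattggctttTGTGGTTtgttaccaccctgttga
Ccl2 promoter (chr11:82035330-82035529): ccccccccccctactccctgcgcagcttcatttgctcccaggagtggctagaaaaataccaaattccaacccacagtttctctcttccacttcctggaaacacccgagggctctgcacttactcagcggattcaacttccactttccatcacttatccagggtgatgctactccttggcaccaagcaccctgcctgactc
Ccl6 and Ccr2 showed a C/EBP and an AP-1 match in the same window, Ccl4 a C/EBP and a PU.1 match, and Ccl9 a PU.1 and a RUNX match. The Ccl2 window held none of these strings. A match is only a string of letters and was not measured as a bound site.

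Values are the authors' group means, that is the log2 of the mean normalised reads over the 2 libraries of a group, and a difference is dKO minus WT on the same log2 scale. The table gave no value per library, so no standard deviation and no test was possible here, and only regions that passed the authors' comparison at a corrected p of 0.05 were listed. Differences of single member regions are therefore given with a 95% counting interval, except where regions are summarised by a range. The interval was computed by exact binomial limits on implied reads, taking the lowest level of the table as a single read in each library. It covers counting error and no variation between libraries. Distances run from the nearer edge of a region to the nearest annotated transcript start of its gene, so that regions of a gene with several starts may be measured from different ones. Since the regions were listed for having passed a threshold, an interval that leaves out 0 is no further support for a difference. The deleted genes matched the labels. A region over Cebpa had a level of 9.99 in WT and -0.15 in dKO, and the 2 regions over Cebpb went from 8.60 to 3.37 and from 7.38 to -0.15. Because unchanged regions were not listed, the labelled cell type could not be checked against the accessibility of its defining genes, and a gene without a listed region may be open or closed in both groups.

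At the named chemokine and chemokine receptor genes, accessibility was listed almost entirely in a single direction. These genes were chosen with earlier results of these data known and do not stand for the whole family. At 24 other chemokine and receptor genes, described further below, 5 regions not counted at a named gene were higher and 5 lower. Of the 22 regions at the named genes, 21 were higher and 1 was lower in dKO than in WT, whereas 60.3% of all listed regions were higher. The higher regions were found at receptors and ligands alike, among them the Ccr1, Ccl2 and Ccl9 start sites and distal regions of Cxcr4 and Ccl17. At least 2-fold higher in dKO were 18 of the 22, against 49.6% of all listed regions. This contrast follows the direction, since among higher regions alone the shares were 85.7% of members and 82.4% of all listed. Among all listed regions the median difference was 0.98, and after subtracting it 19 member regions were higher and 3 lower, while the subtraction splits the whole table evenly.

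**Figure D1:**
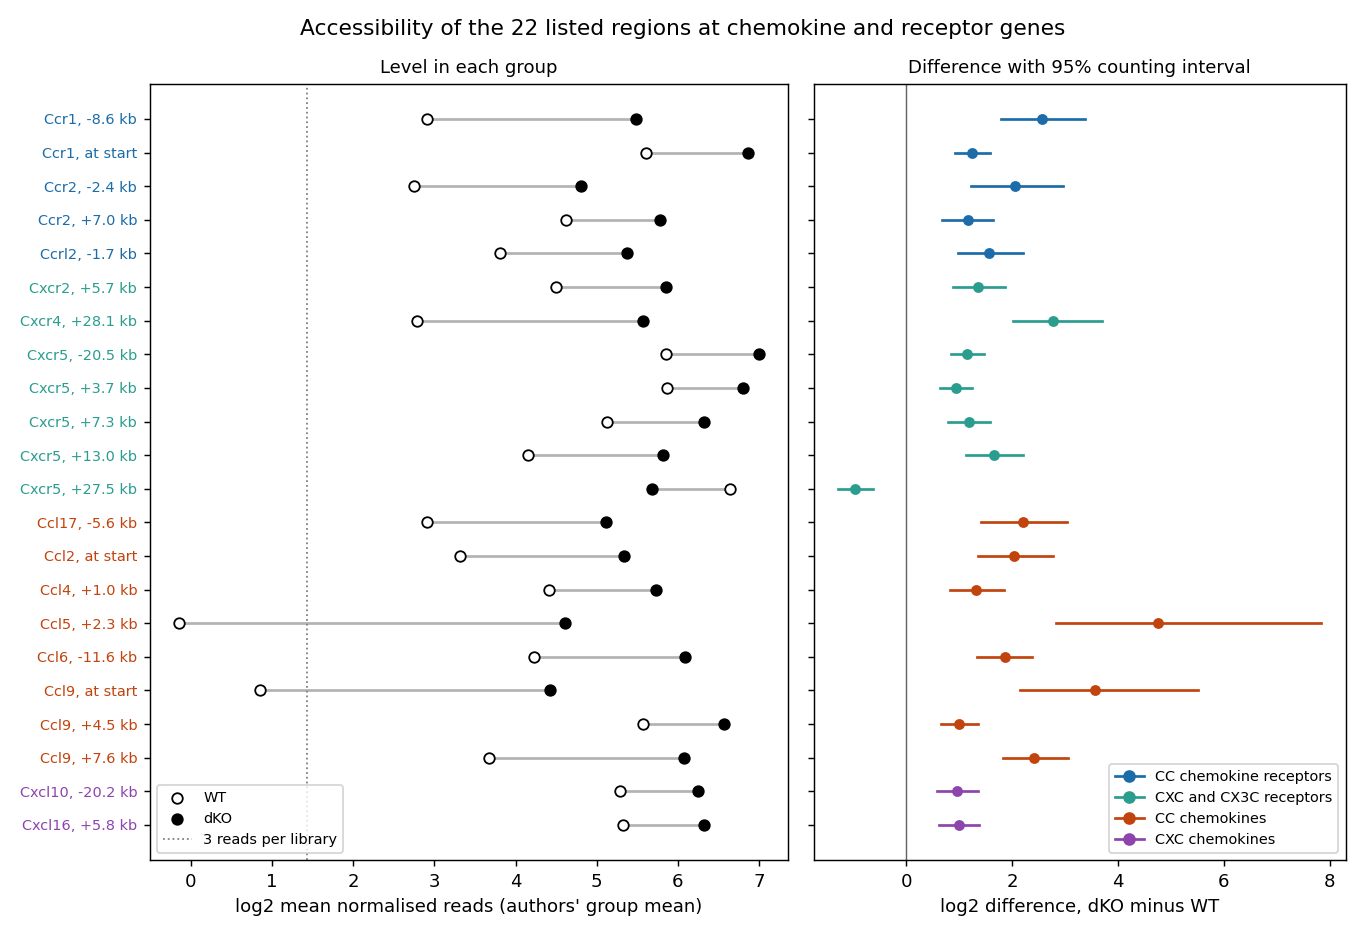
Left, authors' group means in log2 mean normalised reads for WT (open) and dKO (filled) at each of the 22 regions, named by gene and distance from the gene's nearest annotated start and coloured by role; right, the log2 difference dKO minus WT with its 95% counting interval. In 21 rows dKO lies to the right of WT, the exception being the Cxcr5 region 27.5 kb downstream of the nearest Cxcr5 start (6.64 in WT, 5.68 in dKO), and at Ccl5 and the Ccl9 start site WT lies below the dotted level of 3 reads per library (1.43).

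CC receptors accounted for 5 regions, all higher in dKO, at 3 of 6 genes. Ccr1, a receptor for several inflammatory CC chemokines on myeloid cells, had a region over its start site (chr9:123968504-123968913) at 5.61 in WT and 6.86 in dKO, a difference of 1.25 (0.93 to 1.59). This was the most accessible CC receptor region in both groups. A further region 8601 bp upstream of Ccr1 (chr9:123977293-123977632) went from 2.91 to 5.48, a difference of 2.57 (1.79 to 3.38). It lay within the coding sequence of the related gene Ccr1l1, 776 bp from that gene's start site, and could be counted to either receptor. Ccr2, the receptor for Ccl2 through which monocytes leave the bone marrow, had a region 2419 bp upstream (chr9:124099152-124099531) at 2.75 in WT and 4.81 in dKO, a difference of 2.06 (1.22 to 2.97). An intronic region (chr9:124112605-124112920), 6979 bp downstream of an internal Ccr2 start and 10655 bp from the 5′ end of the gene, had a higher WT level than the upstream one, 4.62, and reached 5.78 in dKO, a difference of 1.16 (0.68 to 1.64). Upstream of Ccrl2, which binds chemerin without G protein signalling, the only region (chr9:111059230-111059713, 1711 bp from the start) had levels of 3.81 and 5.38, a difference of 1.57 (0.97 to 2.21). At Ccr1 and Ccr2 the region with the lower WT level showed the larger difference. No region was listed at Ccr3, the eotaxin receptor, at Ccr7, which guides cells to lymph nodes, or at Ccr9, a receptor of thymic and gut homing.

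CXC receptors had 7 regions at 3 of the 6 CXC and CX3C receptor genes, 6 higher and 1 lower. Cxcr4, which holds progenitors in the marrow by binding Cxcl12, showed the largest difference of all receptor regions, 2.78 (2.02 to 3.69), in an intergenic region 28050 bp downstream of its start (chr1:128563926-128564240) with levels of 2.79 in WT and 5.57 in dKO. Cxcr2, the main neutrophil receptor for Cxcl1 and Cxcl2, had a region in an annotated UTR 5692 bp from its start (chr1:74159683-74160118), which went from 4.50 to 5.86, a difference of 1.36 (0.89 to 1.87). Of the bases in the centre of that Cxcr2 region, 72.0% were marked as repeats in the reference.

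Cxcr5, known for homing B cells to follicles, had 5 regions over 84695 bp and was the only gene with both directions. The region over its coding sequence (chr9:44513147-44513445) went from 4.16 to 5.82, a difference of 1.66 (1.12 to 2.20). Within Cxcr5 introns, a region 7313 bp from the nearest start and 12904 bp from the 5′ end of the gene had levels of 5.13 and 6.32, and one at 3705 bp and 9296 bp had 5.87 and 6.81. The region 20527 bp upstream of the 5′ end, in an exon of Gm47230, had levels of 5.85 and 7.00. These last 3 regions differed by 0.94 to 1.19 between the groups. The lower region (chr9:44498092-44498952) had 6.64 in WT and 5.68 in dKO, a difference of -0.96 (-1.29 to -0.62), and covered the start site of the neighbouring gene Bcl9l rather than any part of Cxcr5, whose 5′ end was 62.9 kb away. It was also the widest of the 22 regions, at 861 bp against a median of 351 bp. Cxcr3, Cxcr6 and the fractalkine receptor Cx3cr1 had no listed region, nor had Ackr3, an atypical receptor that removes Cxcl12. Ccrl2, grouped above with the CC receptors by its name, is likewise without G protein coupling.

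CC chemokines held 8 regions, all higher in dKO, at 6 of 12 genes. At Ccl2, the chief monocyte attractant, a region overlapping the start site (chr11:82035257-82035602) went from 3.31 to 5.34, a difference of 2.03 (1.35 to 2.78). The regions of its receptor Ccr2 were also higher, as were 21 of all 22 regions. Ccl17, a ligand of Ccr4, had a region 5605 bp upstream (chr8:94804576-94804848) at 2.91 in WT and 5.11 in dKO, a difference of 2.20 (1.41 to 3.03).

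Ccl4, Ccl5, Ccl6 and Ccl9 lie in a cluster on chromosome 11, and their 6 regions, spread over 135930 bp, were all higher in dKO. Ccl9, a myeloid chemokine that binds Ccr1, had 3 of them. The region over the Ccl9 start site (chr11:83578330-83578651) went from 0.85, below the level of 3 reads per library, to 4.42, a ratio of 11.9 with a log2 counting interval of 2.14 to 5.52, and of 7.92 when WT is set to that level. The other Ccl9 regions lay past the end of the gene, the farther one (chr11:83569297-83569590) going from 3.67 to 6.08, a difference of 2.41 (1.83 to 3.06), and the nearer one (chr11:83572216-83572609) from 5.57 to 6.57, a difference of 1.00 (0.66 to 1.36). The start site thus had the lowest WT level and the largest difference of the 3. Ccl6, another Ccr1 ligand of mouse myeloid cells, had a region 11594 bp upstream (chr11:83604681-83605036) in an intron of E230016K23Rik, with levels of 4.23 and 6.09 and a difference of 1.86 (1.34 to 2.38). Ccl4, also called MIP-1β, had an intronic region 975 bp from its start (chr11:83663559-83663938) with 4.41 and 5.73, a difference of 1.32 (0.83 to 1.85).

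The Ccl5 region stood apart from the rest. Ccl5, or RANTES, attracts T cells and monocytes through receptors that include Ccr1 and Ccr3, and its only region (chr11:83528009-83528257) lay in an intron 2256 bp from the start. WT was at -0.15, the lowest level that the table holds and shared by 46 regions in WT, and dKO was at 4.61. The difference of 4.76 had a counting interval of 2.83 to 7.84, which takes the lowest level as observed reads. Whether that level also stands for no reads was not tested, so the interval may not hold here. The ratio was 9.03 when WT is set to 3 reads per library. As the printed sequence shows, this window is a tandem repeat. At a distance of 19 bp, 76.8% of its bases equalled each other, whereas the highest value of any of the other 21 regions at its best distance was 39.3%, and 0.489% of all listed regions reached 70%. The AP-1 matches of Ccl5 fell within these repeat units. How reads were placed within such repeats is not given in the sources used here, and the part of the repeat in the Ccl5 value was not tested.

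No region was listed at the other 6 CC chemokine genes after each region had been given to the nearest start. Ccl3 and Ccl7 shared their windows with the Ccl4 and Ccl2 regions, which lay 14.2 kb and 10.1 kb from them and were counted to the nearer gene. For Ccl12, a monocyte attractant like Ccl7 and Ccl8, the nearest listed region was also the one at Ccl2, 66.2 kb away. Near Ccl8 the closest region, at 54.9 kb, had the opposite direction, with 4.92 in WT and 1.84 in dKO. Ccl22, which shares the receptor Ccr4 with Ccl17, was 52.9 kb from the Ccl17 region, and Ccl24, an eosinophil attractant, was 31.9 kb from a region at 7.37 in WT and 8.30 in dKO.

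CXC chemokines had 2 regions at 2 of 9 genes, and neither lay close to its own gene's start. The Cxcl10 region (chr5:92369107-92369423) had levels of 5.29 and 6.25, a difference of 0.96 (0.58 to 1.35), and lay 20218 bp upstream in an intron of Art3, nearer to Cxcl11 at 3622 bp. Cxcl10 and Cxcl11 are both ligands of Cxcr3 that interferon induces. The Cxcl16 region (chr11:70453224-70453567) went from 5.33 to 6.32, a difference of 0.99 (0.62 to 1.38), and lay in a UTR of Med11. Cxcl16 is a membrane-bound ligand of Cxcr6. The neutrophil attractants Cxcl1, Cxcl2, Cxcl3 and Cxcl5 had no listed region within 25 kb, although the gene of their receptor Cxcr2 had one. A single region, at 2.93 in WT and 4.89 in dKO, was the nearest to all 4 of them, between 58.8 kb from Cxcl5 and 203 kb from Cxcl2. Cxcl9, Cxcl12 and Cxcl14 had none either. The closest region to Cxcl12, the ligand of Cxcr4 and Ackr3, lay 38.0 kb away and went from 4.84 in WT to -0.15 in dKO, opposite to the Cxcr4 region.

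Counted gene by gene, 13 of the 14 genes with a region had only higher ones, the exception being Cxcr5. With regions assigned to the nearest start site over all protein-coding genes, 12 member genes had a region and all 12 had only higher ones, against 53.2% of the 4926 genes with an assigned region. Any listed region fell in the windows of 16 of the 34 genes, or 47.1%, including Ccl3 and Ccl7, against 35.2% of 21755 protein-coding genes, and against 33.7% of those no longer than the longest member. The merged windows of the 34 genes held 11.6 listed regions per Mb, compared with 5.27 for all protein-coding genes.

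The 22 regions were not independent of each other. They fell into 11 loci when regions within 100 kb were merged, and each locus had more higher than lower regions. Chromosomes 9 and 11 carried 10 and 8 of them. On these chromosomes 55.8% and 62.6% of all listed regions were higher. Within 100 kb of the 11 loci lay 10 further listed regions that were not among the 22, of which 7 were higher and 3 lower.

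**Figure D2:**
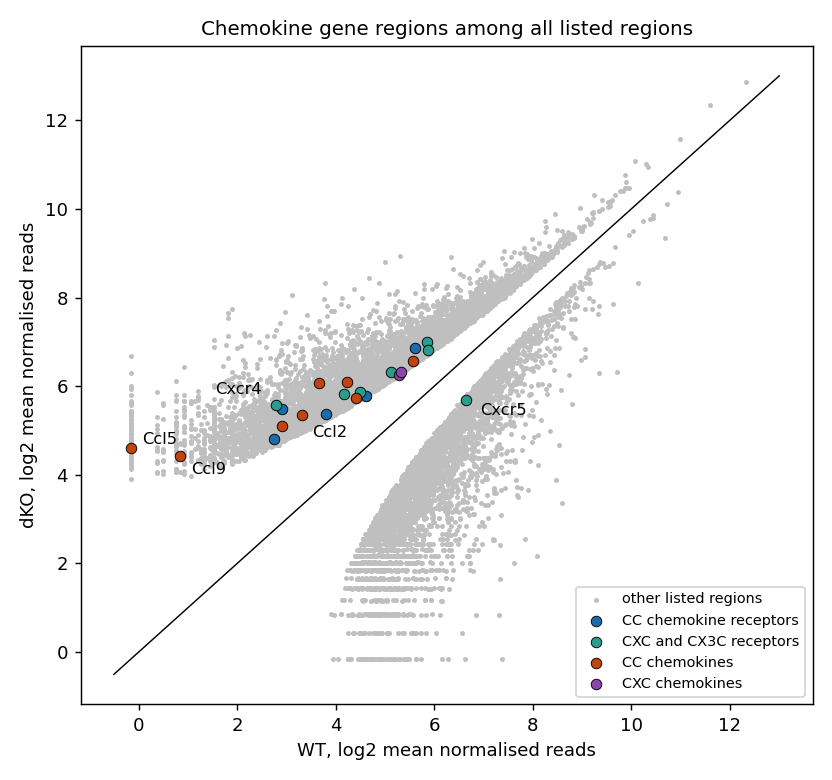
Authors' group means of all 10016 listed regions, WT on the x axis and dKO on the y axis in log2 mean normalised reads, with equal levels on the line and the 22 chemokine gene regions coloured by role. All but the Cxcr5 region at the Bcl9l start site lie above the line, inside the cloud of the other higher regions, and the empty band along the line is where regions did not pass the authors' threshold.

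In size, the differences at chemokine genes lay close to those of all higher regions. The 21 higher regions had a median difference of 1.57, and all 6035 listed higher regions one of 1.58. Their median level was 4.23 in WT and 5.82 in dKO, against 4.52 and 6.23 for all higher regions. In WT, 16 of the 22 regions were below the median level of the table, 5.31. The median GC content of their centres equalled that of all listed regions.

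Most of the regions lay away from start sites. Only Ccl2, Ccl4, Ccl9 and Ccr1 had a region within 1 kb of their own start, with differences between 1.25 and 3.57. Within 1 kb of the start of any gene lay 6 of 22 regions, or 27.3%, against 19.1% of all listed regions. For 17 of the 22 the nearest start site was that of the chemokine or receptor gene itself, so that the other 5 regions, at Ccr1, Cxcl10, Cxcl16 and Cxcr5, may belong to neighbouring genes.

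**Figure D3:**
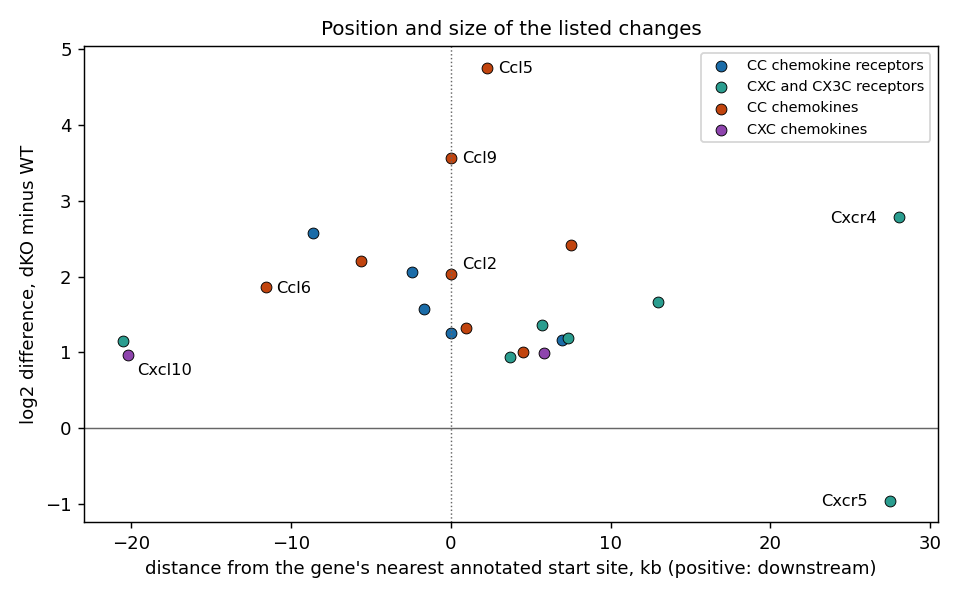
Log2 difference (dKO minus WT) of each of the 22 regions against its distance in kb from the nearest annotated transcript start of its gene, with downstream positions positive and points coloured by role. The 2 largest differences, at Ccl5 (4.76, with WT at the lowest level) and Ccl9 (3.57), lie within 3 kb of the start, while Cxcr4 reaches 2.78 at 28.1 kb and the only negative value is that of Cxcr5 at 27.5 kb from the nearest start and 62.9 kb from the 5′ end of the gene.

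Motif strings were searched on both strands in the central 200 bp of each region, and 15 of the 22 had at least 1 match to any of them, against 58.4% of all listed regions. AP-1 matches occurred in 7 regions, or 31.8% (95% Wilson interval 16.4 to 52.7), against 26.7% of all higher and 4.67% of all lower regions. They lay at Ccl5, Ccl6, Ccr2, Cxcl10 and 3 Cxcr5 regions, including the lower one at Bcl9l. C/EBP matches occurred in 6, or 27.3% (13.2 to 48.2), against 20.1% of all higher and 40.8% of all lower regions. All 6, at Ccl4, Ccl5, Ccl6, Ccr2, Cxcr4 and a Cxcr5 intron, were in higher regions, to which 21 of the 22 regions belonged. Over the whole length of the regions 8 held a C/EBP match, 7 higher ones and the lower one at Bcl9l. This was 36.4%, against 42.9% of all listed, 35.3% of all higher and 54.3% of all lower regions. The AP-1 share over the whole length was 31.8%, against 36.1% of all higher and 8.89% of all lower regions. The PU.1 string, for the myeloid factor encoded by Spi1, was found in 5, or 22.7% (10.1 to 43.4), at Ccl4, Ccl17, Cxcl16 and 2 Ccl9 regions, against 13.1% of all higher and 3.34% of all lower regions. RUNX matches occurred in 2 regions, or 9.09% (2.53 to 27.8), against 13.8% of all higher and 9.04% of all lower regions. They lay at Ccl9 and Cxcr2, the latter in a region of mostly repeat sequence. No match was found for the NF-kappaB consensus or for the interferon response core GAAANNGAA, which 2.15% and 5.81% of all listed regions held, and 0 of 22 allows a share of up to 14.9% by the Wilson interval. With 22 regions the intervals were wide and, for the 4 strings that had matches, contained the share over all higher regions. Related factors share such strings, so a match names no single protein.

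**Figure D4:**
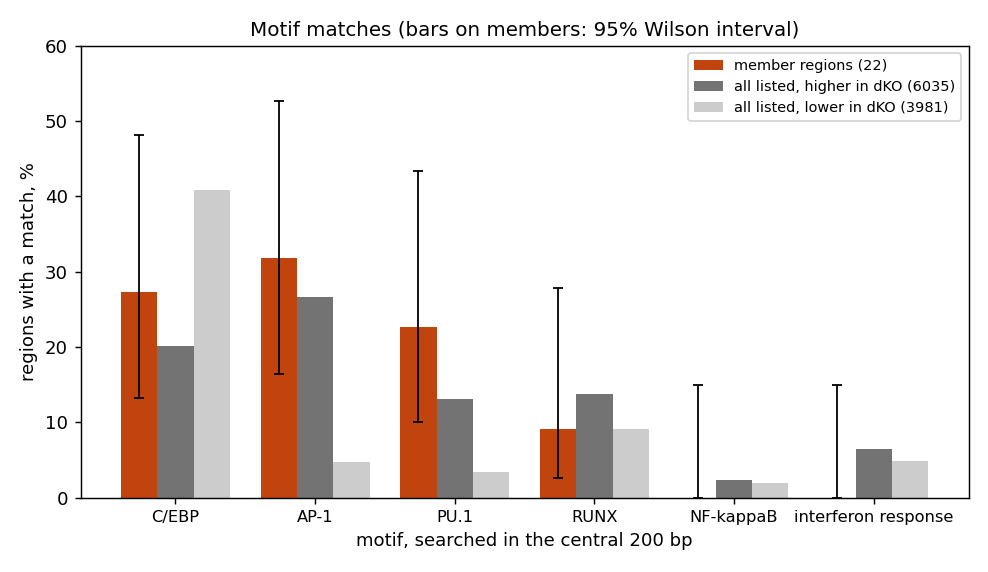
Percent of regions with at least 1 match to each motif string in the central 200 bp, for the 22 chemokine gene regions (with 95% Wilson intervals), all 6035 listed regions higher in dKO and all 3981 lower in dKO. Members stand at 31.8% for AP-1 and 22.7% for PU.1, above the lower regions (4.67% and 3.34%), and their intervals include the shares of all higher regions.

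Chemokine and receptor genes outside the 34 had listed regions in both directions. Of 24 such genes 11 had a listed region, against 35.2% of protein-coding genes. They had 15 regions, of which 10 were higher and 5 lower, and 5 of the higher ones were already counted at a member. The remaining 10 comprised 5 higher and 5 lower regions, beside 60.3% higher over all listed regions, and the difference from the 34 genes was not tested. Higher regions lay at Xcr1 (difference 2.94), Ackr2 (2.59) and Cxcl13 (3.78), the ligand of Cxcr5. Ccl1 had 2 lower regions (-3.08 and -1.03) and Ccl25, a ligand of Ccr9, had 1 (-1.97). At Ccr4, the receptor of Ccl17, 1 region was higher and 1 lower, as at Ccr6.

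The list of genes downstream of the receptors, which also held the protease Dpp4, had a share of higher regions like that of the whole table. Of its 19 genes, mostly for G proteins, arrestins, kinases and migration factors, 12 had 25 regions, 15 higher and 10 lower. For comparison, 60.3% of all listed regions were higher, and 35.2% of protein-coding genes had a region in such a window. Of the 15 higher regions, 1 was the Cxcl16 region near Arrb2. Rac2, a small GTPase of leukocyte movement, had 2 higher regions (1.49 and 1.58), Vav1 had 1 (1.77), and Pik3cg, a lipid kinase activated by chemokine receptors, had 1 (1.36). Grk2, a receptor kinase gene, had 1 higher region (0.62). Gnb1, a G protein gene, had 1 lower region (-3.22), as had Dpp4, a protease that trims chemokines (-3.75). Elmo1, Prex1, Dock2, Pik3r5 and Arrb1 had regions of both directions.

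Markers of differentiated cells were counted in the same windows, since chemokine genes are used differently along the myeloid lineages. Of all listed regions 60.3% were higher, and 35.2% of protein-coding genes had a region in such a window. All 9 regions at 4 of 5 monocyte-macrophage markers were higher in dKO, 3 at Csf1r (1.08 to 2.55), 1 at Cd68 (0.90), 3 at Ly6c2 (0.64 to 2.42) and 2 at Fcgr1 (1.39 to 2.32), while Adgre1 had none. Neutrophil markers had 4 regions, 3 higher and 1 lower, of which the Ltf region was the one counted at Ccrl2. Mast cell markers had 4 regions, 2 in each direction. The listed monocyte-macrophage marker regions thus had the direction of most chemokine gene regions, and their part in the result was not tested. These are counts of accessible regions near the marker genes, not levels of their RNA or protein, and they give no number of monocytes or macrophages in either group.

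**Figure D5:**
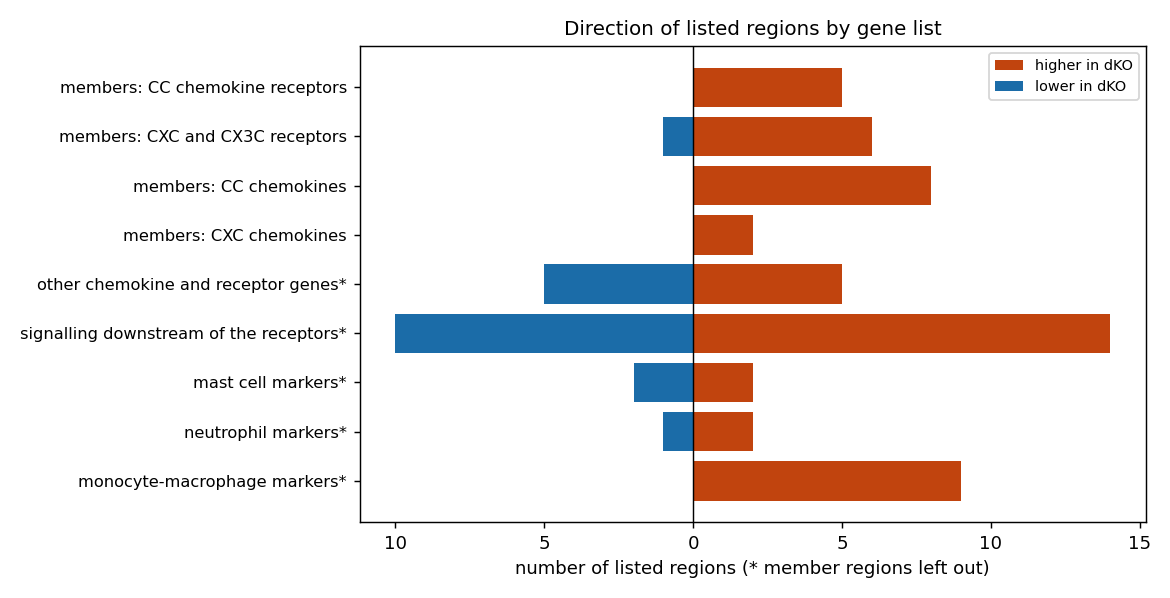
Number of listed regions higher in dKO (right of 0) and lower in dKO (left of 0) for the 34 genes by role and for the other gene lists, from which regions counted at a member were left out. The 4 roles give 21 higher against 1 lower, the other chemokine genes 5 against 5, and the monocyte-macrophage markers 9 against 0. The list of downstream signalling genes and Dpp4 gives 14 against 10.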

How the data were processed

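ATAC-seq reads were processed by the authors with PiGx, Bowtie2 and MACS2 on mm10, and groups were compared with DiffBind 2.14.0, per the study's methods and the submitters' processing notes. Duplicate handling, the Tn5 offset and peak merging are not given in the sources used here; they could shift counts and edges. The authors deposited log2 group means of normalised reads for WT and dKO, which were used. Their mean over groups, fold and p-value columns were not used, and the deposited corrected p-values served only to check the filter (0 of 10016 above 0.05). The 2 deposited files were identical, so 1 table and 4 libraries entered. Depth per library was not analysed here.

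Regions were assigned with Python 3.11.15, pandas 2.3.3 and numpy 2.4.6 to GENCODE M21 genes. Intervals came from scipy 1.17.1 and leave out PCR duplication, which makes reads depend on each other, and every other source but counting. A floor of 3 reads per library was used. Assignment and motif search were tested on simulated data. Full values were set for regions within 1 kb of their gene's start, the 6 largest changes each way and single regions of a gene, and the rest by range. Beyond this rule, levels are also given for the remaining regions of Ccr2, Ccl9 and Cxcr5, chosen after their values were seen. Sequence was set for the largest fall with a C/EBP match and the largest rise with an AP-1 match. It was also set for the start-site regions with the largest rise and the largest fall. In the Ccl9 start-site region 126 of the central 200 bp lie in a UTR, and it was not printed. The only lower member region was not within 1 kb of its gene's start and held no C/EBP match in its central 200 bp. The members and lists were chosen with earlier results of these data known. Alternatives were other windows, assignments, size and level cutoffs, centring and motif spans. Merging neighbouring regions, limiting the background by gene length and the repeat measure were chosen after seeing the data. Of the gene lists, 2 genes are not reported here and were left out of every list count.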

Additional observations from a re-analysis of the deposited data

How the results depend on the processing

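The count of regions lower in dKO, 1 as reported, was 0 with windows of 10 kb, 0 when only regions nearest to a member's start site were kept and 0 at an absolute log2 difference of at least 1. It was 5 with windows of 50 kb and 3 after centring on the median difference of 0.98. Counting 1 per locus, chosen after seeing the data, gave 11 loci higher and 0 lower. The other settings left the counts of genes, regions and higher regions within 1.5 times the reported ones, with 17 to 27 regions higher. The median difference of the 22 regions, 1.47, was between 1.34 and 1.57. Windows of 50 kb added Ccl24, Ccr7 and Cxcr6 with a higher region and Cxcl12, Cxcl14 and Cxcr3 with a lower one. The net direction of Cxcl10 reversed to -1 after centring, and no other gene reversed under the settings tried. RUNX matches were 4 rather than 2 when whole regions were searched. The background of shorter genes was likewise chosen after seeing the data and changed 35.2% to 33.7%.

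No paired analysis was possible because only means over the libraries of a group were at hand, and leaving out a library was not run for the same reason. The number of reads limits the Ccl5 and Ccl9 start-site values, whose WT levels were below 3 reads per library. Without them 19 regions were higher and 1 lower.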
